A study of Mus musculus with 6 samples.

Results

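The genes described are 10 mouse genes of the leukotriene and prostaglandin pathways, taken as a named set. The set was drawn up with earlier results of these data known. All 10 were measured, each by 1 probe set, among 19938 genes tested. They are the leukotriene receptor genes Cysltr1, Cysltr2 and Ltb4r1, the prostaglandin receptor genes Ptger2 and Ptger4, the cyclooxygenase gene Ptgs2, and the leukotriene synthesis genes Alox5, Alox5ap, Lta4h and Ltc4s. RNA came from CCR6+ group 3 innate lymphoid cells (ILC3s) sorted from the small intestinal lamina propria of adult C57BL/6 mice, with 1 Affymetrix array per sample. The control group (3 arrays) carried floxed Tnfsf11 alleles (Tnfsf11fl/fl), and the second group (3 arrays, here called RANKL-deficient) carried the same alleles together with Cre. Tnfsf11 encodes the cytokine RANKL. The control labels name no Cre, so an effect of Cre and one of the deletion cannot be told apart. The labels do not say whether the arrays of a group came from separate mice, so the p-values cover the spread among these 6 samples only, and that spread may be technical.

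Eicosanoids are short-lived lipid signals made from arachidonic acid that phospholipase A2 releases from membranes. 5-lipoxygenase (Alox5), helped by its activating protein FLAP (Alox5ap), makes leukotriene A4. LTA4 hydrolase (Lta4h) turns this into leukotriene B4, the ligand of the chemoattractant receptor BLT1 (Ltb4r1), while LTC4 synthase (Ltc4s) makes the cysteinyl leukotrienes, which act on the receptors encoded by Cysltr1 and Cysltr2. Cyclooxygenase-2 (Ptgs2) starts the synthesis of prostaglandins, and prostaglandin E2 signals through a family of 4 receptors, of which EP2 (Ptger2) and EP4 (Ptger4) raise cyclic AMP. In the gut, these signals are best known from mast cells, myeloid cells, tuft cells and the epithelium, and lymphocytes respond to them through their receptors.

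Array medians lay between 5.07 and 5.15 (log2). By spread over genes, control arrays 1 and 2 stood apart, with 1.86 and 1.93 (SD) against 1.99 to 2.01 on the other 4. The array weights estimated by limma were instead lowest for control arrays 1 and 3 (0.45 and 0.60). Control array 2 had a weight of 1.43, and the RANKL-deficient arrays 1.32 to 1.47. The fit without control arrays 1 and 2 therefore rests on a single control array, of low weight by limma. By mean correlation with the other arrays, that array (control array 3) was instead the highest of all, at 0.9769. Control arrays 1 and 2 had 0.9595, the lowest, and 0.9702, and the RANKL-deficient arrays 0.9745 to 0.9759. These measures thus rank the control arrays differently. Tnfsf11, the targeted gene, measured 8.76, 8.41 and 8.25 on control arrays 1 to 3 and 8.36, 8.65 and 8.52 on RANKL-deficient arrays 1 to 3, and these values overlap. Where its probes lie relative to the floxed exons is not given in the sources used here, so this does not check the labels. All 18 measured genes of the 21 listed for ILC3 identity lay above the level of the median gene (5.12), with Thy1 at 12.2 ± 0.13 in the control group and 12.4 ± 0.05 in the RANKL-deficient group (SD, n = 3 each).

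Of the 10 genes, 0 passed an adjusted p of 0.05 (limma, Benjamini-Hochberg adjustment over all genes), where 1 of all genes, Ccr2, did (0.00502%). At an unadjusted p under 0.05 there were 4 of 10, against 8.15% of all genes, and by limma these were Cysltr2, Ltb4r1, Ptger4 and Ptgs2. The same 4 were the genes whose groups did not overlap, against 14.4% of all genes. Values were higher in RANKL-deficient cells for 3 of them (5.28% of all genes did not overlap in that direction) and lower for Ptger4 (9.08%). Because the set was chosen with earlier results of these data known, these counts describe it and do not test it. The median difference over the 10 genes was 0.061 on the log2 scale, with 5 genes higher and 5 lower, beside a median of −0.054 over all genes, of which 39.5% were higher and 60.5% lower. Leaving out any 1 array kept these 4 genes under an unadjusted p of 0.05. Without control arrays 1 and 2 together, Cysltr2, Ltb4r1 and Ptger4 did so (3 of 10, against 6.29% of all genes), and Ptgs2 did not. In that comparison of 1 control array with 3, the groups did not overlap for 6 of the 10 genes, against 51.7% of all genes. None of the 10 passed the adjusted threshold under any of the 15 alternative settings that could be fitted for it.

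**Figure D1:**
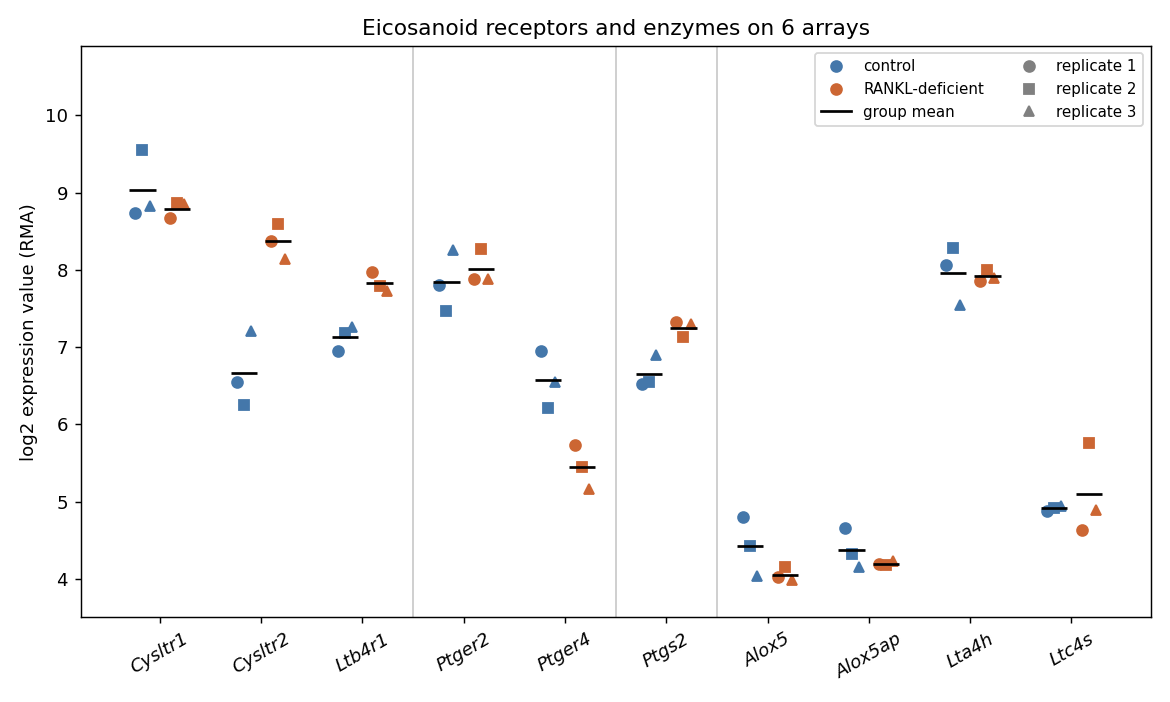
Log2 expression value (vertical axis) of the 10 genes on each of the 6 arrays. Points are single arrays, coloured by group and shaped by replicate number, and black lines are group means. The groups separate for Cysltr2, Ltb4r1, Ptger4 and Ptgs2 and overlap for the other 6 genes.

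Among the receptors for cysteinyl leukotrienes, Cysltr2 had the largest difference of the 10 genes. It measured 6.55, 6.25 and 7.21 on control arrays 1 to 3 and 8.37, 8.60 and 8.14 on RANKL-deficient arrays 1 to 3 (log2 values). Every RANKL-deficient array lay above every control array, with a gap of 0.93 between the nearest arrays, and control array 3 was the highest of the controls. The means were 6.67 ± 0.49 (SD, n = 3) and 8.37 ± 0.23 (SD, n = 3), a 3.26-fold difference (log2 1.70, SE 0.26, 95% confidence interval 1.09 to 2.31). The limma adjusted p was 0.245, and it ranged from 0.102 to 0.702 over the alternatives. A difference at least this large in either direction was found in 0.166% of all genes. Without control arrays 1 and 2 the difference was 1.16.

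Cysltr1, the other receptor for cysteinyl leukotrienes, showed no such separation. It measured 8.73, 9.56 and 8.83 in control and 8.67, 8.86 and 8.85 in RANKL-deficient cells. Control array 2 stood above the other 5 arrays, which lay within 8.67 to 8.86. The difference of −0.25 (SE 0.23, 95% confidence interval −0.79 to 0.29, limma adjusted p = 0.775) turned to 0.013 without that array. The differences of the 2 receptor genes were 1.95 apart. Taken array by array as Cysltr2 minus Cysltr1 and set to the control mean, the value ran from −0.94 to 0.75 in control and from 1.66 to 2.11 in RANKL-deficient cells. By exact permutation (two-sided) p was 0.1, the smallest that 3 arrays against 3 allow, and 0.1 also after Benjamini-Hochberg adjustment over the 2 receptor pairs compared. This pair, like the Ptger2 and Ptger4 pair, was chosen with the values known.

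Ltb4r1, the high-affinity receptor for leukotriene B4 that draws leukocytes to inflamed tissue, had a smaller and tighter difference. It measured 6.95, 7.18 and 7.26 on control arrays 1 to 3 and 7.98, 7.80 and 7.72 on RANKL-deficient arrays 1 to 3. The groups were 0.47 apart at their nearest arrays, which exceeds the whole range of either group (0.31 and 0.25). The difference was 0.70 (SE 0.14, 95% confidence interval 0.37 to 1.04, 1.63-fold, limma adjusted p = 0.363), from 0.58 to 0.77 over the alternatives. By p it ranked 85th of all genes, and Cysltr2 22nd. The gene for the second leukotriene B4 receptor, Ltb4r2, was not analysed here.

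Ptger4 was the 1 receptor gene of the set whose RANKL-deficient arrays all lay below the control arrays. It encodes EP4, a receptor that couples prostaglandin E2 to cyclic AMP in many lymphocytes. The control arrays measured 6.95, 6.21 and 6.55 and the RANKL-deficient arrays 5.73, 5.45 and 5.17. The lowest control array (array 2) was 0.48 above the highest RANKL-deficient array (array 1). The means of 6.57 ± 0.37 (SD, n = 3) and 5.45 ± 0.28 (SD, n = 3) were 2.18-fold apart (log2 −1.12, SE 0.23, 95% confidence interval −1.66 to −0.58, limma adjusted p = 0.377). A difference of at least this size was found in 0.833% of all genes, and over the alternatives it ran from −1.30 to −0.93. In a bulk sample, fewer cells that express a gene and less of its RNA per cell cannot be told apart.

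T cell markers differed in both directions, and none passed the adjusted threshold. Cd3g, a chain of the T cell receptor complex, was 7.32, 6.93 and 5.82 in control and 5.26, 4.20 and 4.89 in RANKL-deficient cells, with no overlap (limma adjusted p = 0.408). Cd3e differed by −0.70 and Cd3d by 0.26, both with overlap. Cd4, which LTi-like ILC3s also carry, was higher by 0.69 in RANKL-deficient cells, with no overlap (limma adjusted p = 0.523). Over the 14 measured T and B cell markers the mean level per array ran from 5.26 to 5.52 in control and from 5.16 to 5.30 in RANKL-deficient cells, which overlap. Of the 14, 8 lay below the median gene, and 3 were higher in RANKL-deficient cells, against 39.5% of all genes. Their part in the Ptger4 value was not tested.

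Ptger2, which encodes EP2, overlapped between the groups. Its values were 7.81, 7.47 and 8.25 in control and 7.88, 8.26 and 7.89 in RANKL-deficient cells, so that control array 3 lay nearly as high as the highest RANKL-deficient array. The difference was 0.17 (SE 0.22, 95% confidence interval −0.36 to 0.69, limma adjusted p = 0.844), and it turned to −0.020 without control array 2 and to −0.24 without control arrays 1 and 2. Set to the control mean, Ptger2 minus Ptger4 ran from −0.41 to 0.43 in control and from 0.88 to 1.54 in RANKL-deficient cells (exact two-sided permutation p = 0.1, the smallest possible). The other EP receptor genes belong to a wider receptor list. Ptger1 (EP1) measured 6.48, 6.91 and 7.18 in control and 7.72, 7.41 and 7.68 in RANKL-deficient cells, and the means were 0.74 apart (SE 0.20, limma adjusted p = 0.452). Its groups did not overlap, and without control arrays 1 and 2 the difference was 0.42. Ptger3 (EP3) differed by 0.032 and its group means, 3.11 and 3.14, were below the median gene. The 4 EP receptor genes therefore had differences of 0.74, 0.17, 0.032 and −1.12, in the order EP1 to EP4.

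**Figure D2:**
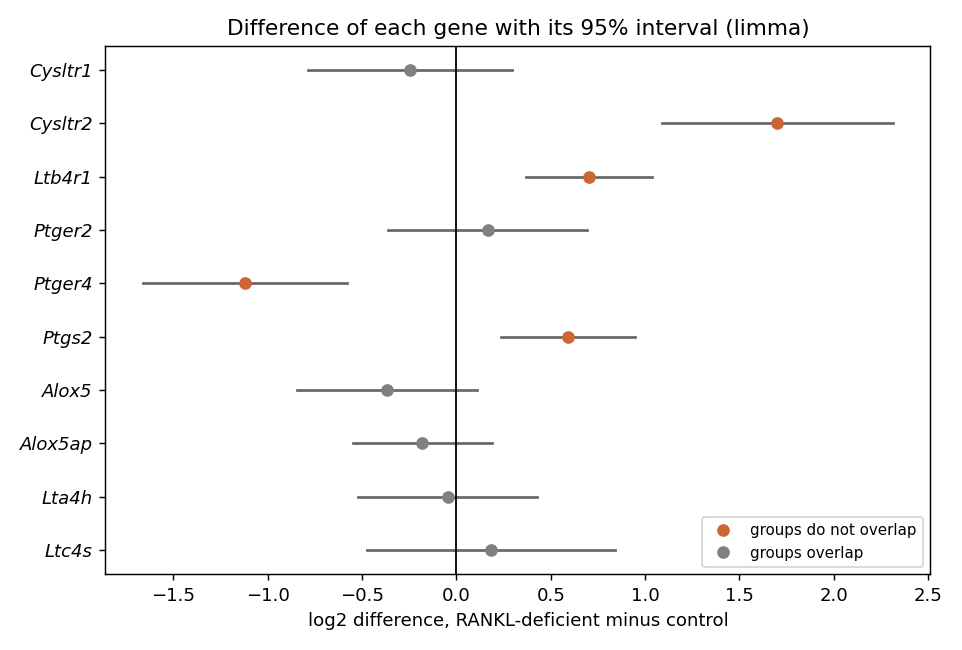
Difference in log2 expression, RANKL-deficient minus control (horizontal axis), for each of the 10 genes, with its 95% confidence interval from limma. The intervals of Cysltr2, Ltb4r1, Ptger4 and Ptgs2 leave out 0 before adjustment for the number of genes tested, and none passed after it.

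Ptgs2, the inducible cyclooxygenase, measured 6.53, 6.54 and 6.90 on control arrays 1 to 3 and 7.33, 7.13 and 7.30 on RANKL-deficient arrays 1 to 3. The groups did not overlap, but control array 3 came within 0.22 of the lowest RANKL-deficient array. The difference was 0.59 (SE 0.15, 95% confidence interval 0.24 to 0.95, 1.51-fold, limma adjusted p = 0.430). Of all genes, 6.26% had a difference at least this large in either direction. Without control arrays 1 and 2 it was 0.35. The other cyclooxygenase gene, Ptgs1, was not analysed here.

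The leukotriene synthesis genes overlapped between the groups, and 3 of these 4 lay below the median gene. Alox5 measured 4.80, 4.42 and 4.04 in control and 4.02, 4.15 and 3.99 in RANKL-deficient cells. The difference was −0.37 (SE 0.20, limma adjusted p = 0.676). Alox5ap measured 4.66, 4.32 and 4.16 in control and 4.19, 4.18 and 4.23 in RANKL-deficient cells, which differ by −0.18 (SE 0.16, limma adjusted p = 0.759). Both were highest on control array 1, as were 46.0% of all genes below the median gene and 20.8% of the genes above it. Genes below the median gene had a median difference of −0.10, and 75.6% of them were lower in RANKL-deficient cells. Without control arrays 1 and 2, Alox5 differed by 0.013 and Alox5ap by 0.039. No background level was measured here, so values this low may lie at background.

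Ltc4s, the enzyme that commits leukotriene A4 to the cysteinyl branch, was nearly constant in control (4.87, 4.92 and 4.94) and varied in RANKL-deficient cells (4.63, 5.76 and 4.90). RANKL-deficient array 2 alone stood high, and without it the difference of 0.18 (SE 0.28, limma adjusted p = 0.861) became −0.15. Lta4h, which makes leukotriene B4, was the member of this group above the median gene. It measured 8.06, 8.29 and 7.54 in control and 7.86, 8.0 and 7.89 in RANKL-deficient cells. The difference of −0.045 (SE 0.20, 95% confidence interval −0.52 to 0.43) changed sign under 4 of the 15 alternatives, centring of the arrays among them, and was 0.38 without control arrays 1 and 2.

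Markers of mast cells, granulocytes and tuft cells mostly lay below the median gene. All 11 mast cell and basophil markers lay below the median gene, with mean levels per array of 3.64 to 3.92 in control and 3.58 to 3.64 in RANKL-deficient cells. The highest of them was Tpsb2, a mast cell tryptase, and the defining mast cell gene Cpa3 measured 4.24 ± 0.21 (SD, n = 3) and 3.98 ± 0.38 (SD, n = 3). Of the 13 eosinophil and neutrophil markers measured, 11 lay below the median gene (3.91 to 4.11 in control and 3.90 to 3.95 in RANKL-deficient cells), with Siglecf highest in control and Retnlg in RANKL-deficient cells. Of the 8 tuft cell markers 5 did (4.62 to 4.80 and 4.52 to 4.61), with Gfi1b highest. Of the 17 macrophage and dendritic cell markers, 10 lay above the median gene, and the complement gene C1qc was highest, with group means of 7.58 and 7.73. Their mean level per array was 5.25 to 5.32 in control and 5.04 to 5.42 in RANKL-deficient cells. The ILC2 markers (8 measured, Arg1 highest) averaged 5.26 to 5.46 per array in control and 5.25 to 5.46 in RANKL-deficient cells. Epithelial markers (12, Krt8 highest) averaged 5.19 to 5.50 and 4.91 to 5.35, and stromal and endothelial markers (9, Pecam1 highest) 5.66 to 5.89 and 5.58 to 5.61. The part of these cell types in the values of the 10 genes was not tested.

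The promoters of the 4 genes whose groups did not overlap are shown to set the genes that were higher beside the 1 that was lower. Each is the 250 bases before the annotated start, from RefSeq (GRCm38.p6), read 5′ to 3′ on the gene's strand. Of the 10 genes, 8 had such a window. Capitals mark matches on either strand to 6 motifs: the core of the cyclic AMP response element TGACG, the E-box CACGTG, the AP-1 site TGANTCA, the CCAAT box CCAAT, the TATA box TATAAA and the GC box GGGCGG.
Cysltr2 (higher; chr14:73049115-73049364, minus strand): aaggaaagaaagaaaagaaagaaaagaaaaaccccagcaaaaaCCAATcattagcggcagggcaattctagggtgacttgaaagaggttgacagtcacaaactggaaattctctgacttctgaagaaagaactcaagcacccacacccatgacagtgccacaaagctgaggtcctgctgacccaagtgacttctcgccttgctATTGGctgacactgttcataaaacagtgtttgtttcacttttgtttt
Ltb4r1 (higher; chr14:55765712-55765961, plus strand): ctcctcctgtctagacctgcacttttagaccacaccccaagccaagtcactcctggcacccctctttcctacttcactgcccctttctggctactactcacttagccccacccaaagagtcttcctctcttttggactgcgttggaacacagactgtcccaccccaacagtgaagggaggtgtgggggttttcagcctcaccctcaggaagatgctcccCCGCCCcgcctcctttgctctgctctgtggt
Ptgs2 (higher; chr1:150099781-150100030, plus strand): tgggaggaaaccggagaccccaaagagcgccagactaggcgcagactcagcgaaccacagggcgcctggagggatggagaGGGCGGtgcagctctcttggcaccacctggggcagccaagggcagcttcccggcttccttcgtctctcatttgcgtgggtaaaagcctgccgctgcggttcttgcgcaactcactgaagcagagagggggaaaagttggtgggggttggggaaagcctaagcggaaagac
Ptger4 (lower; chr15:5244188-5244437, minus strand): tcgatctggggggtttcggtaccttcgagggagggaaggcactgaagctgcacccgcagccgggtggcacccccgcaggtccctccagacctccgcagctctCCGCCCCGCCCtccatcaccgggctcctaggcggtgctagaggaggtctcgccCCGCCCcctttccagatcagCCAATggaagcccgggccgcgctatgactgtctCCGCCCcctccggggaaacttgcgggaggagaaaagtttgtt

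The 3 promoters of the higher genes shared no one of these 6 motifs. The Cysltr2 window held the CCAAT box 2 times, once on each strand, and 33.8% of all 32851 promoter windows held it. Its base content was 42.8% G or C. Ltb4r1 and Ptgs2 each held 1 GC box (32.7% of all windows), with 56.8% and 61.6% G or C. Ptger4 held 4 GC boxes, 2 of them overlapping by a base, and 1 CCAAT box, with 66.8% G or C. The cyclic AMP element core (17.8%), the E-box (6.02%), the AP-1 site (6.75%) and the TATA box (12.4%) had no match in these 4 windows. In all, 7 motifs were searched, and the further one, AGGTCA (14.0%), had no match in these windows either. Windows of genes whose groups overlapped held the same motifs. Lta4h held the CCAAT box on each strand, as Cysltr2 did, Ptger2 also held a CCAAT box, and Alox5 held a GC box. Ltc4s held no match. A match is only a run of letters in the reference, and no binding was measured here.

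Of the 10 genes, 3 lie on the chromosome of the floxed gene Tnfsf11, and these are Cysltr2, Ltb4r1 and Ptger2. In the order of the RefSeq annotation, 35 measured genes stand between Cysltr2 and Tnfsf11. Of these 35, 3 had groups that did not overlap (8.57%, against 14.4% of all genes). All 3 were lower in RANKL-deficient cells, a direction found without overlap in 9.08% of all genes. The median difference of the 35 was 0.009. Between Ltb4r1 and Tnfsf11 stood 210 measured genes, of which 21 did not overlap, 8 higher and 13 lower (5.28% and 9.08% of all genes). Between Ptger2 and Tnfsf11 stood 392, of which 46 did not overlap (11.7%), 18 higher and 28 lower.

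In the rest of the pathway, 0 genes passed the adjusted threshold. The other eicosanoid receptors had 7 of 9 listed genes measured, 5 higher and 2 lower, with a median difference of 0.071. That median was −0.032 without control array 3, 0.20 without control arrays 1 and 2, and 0.41 among genes above the median gene. Ptger1 was the 1 of the 7 with an unadjusted p under 0.05 by limma, against 8.15% of all genes. The prostaglandin D2 receptor genes Ptgdr and Ptgdr2 differed by −0.024 and 0.21, the thromboxane receptor gene Tbxa2r by 0.071, the prostacyclin receptor gene Ptgir by −0.030 and the prostaglandin F receptor gene Ptgfr by 0.088. Those of Ptgdr, Ptgir and Tbxa2r changed sign under at least 1 alternative. Ptgdr2 ran from 0.023 without RANKL-deficient array 2 to 0.48 without control array 1, and Ptgfr from 0.044 without control array 3 to 0.19 after quantile normalization.

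The other enzymes and transporters had 50 of 55 listed genes measured, 18 higher and 32 lower, with a median of −0.099. Among genes above the median gene that median was 0.11, and without control arrays 1 and 2 it was −0.021. Of these, 4 higher and 3 lower had an unadjusted p under 0.05, against 4.25% and 3.9% of all genes. The 4 higher ones were Acsl4, Pla2g4a, Cotl1 and Mgll. Acsl4, which couples arachidonic acid to coenzyme A, measured 6.67, 6.75 and 6.69 in control and 7.22, 7.51 and 7.64 in RANKL-deficient cells, and the means were 0.75 apart (SE 0.14, limma adjusted p = 0.327). Pla2g4a, the cytosolic phospholipase A2, measured 4.20, 4.48 and 4.82 in control and 5.46, 5.53 and 5.05 in RANKL-deficient cells, and the means were 0.85 apart (SE 0.21, limma adjusted p = 0.423). Its control mean was below the median gene, and without control arrays 1 and 2 the difference was 0.53. Cotl1, an actin-binding protein that also binds 5-lipoxygenase, differed by 0.77 and by 0.39 without control arrays 1 and 2. Mgll, the monoacylglycerol lipase, differed by 0.99, and by 0.58 without RANKL-deficient array 3, the highest. The lower ones were Hpgd (−0.60) and Ptgr1 (−0.59), which break down prostaglandins and leukotriene B4, and the lipoxygenase gene Alox15 (−0.43), all with both group means below the median gene. Without control arrays 1 and 2, Hpgd differed by −0.32 and Ptgr1 by −1.01, and without control array 3 Ptgr1 differed by −0.38.

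Of the G protein and cyclic AMP genes that act behind these receptors, 36 of 41 were measured, 23 higher and 13 lower, with a median difference of 0.15. Leaving out 1 array moved that median to 0.055 (control array 1) or 0.068 (RANKL-deficient array 2), and leaving out control arrays 1 and 2 to 0.050. At an unadjusted p under 0.05 by limma there were 1 higher and 2 lower of the 36, a share close to the 8.15% of all genes. Gnaq and Plcb3, a G protein subunit and a phospholipase C that carry calcium signals, differed by −0.51 and −0.59 with no overlap between the groups. Prkar1a, a regulatory subunit of protein kinase A, differed by 0.85 with overlap, and by 0.11 without control arrays 1 and 2. Gnai2, the inhibitory subunit used by many chemoattractant receptors, differed by 0.31 with no overlap (SE 0.14, limma adjusted p = 0.614), and by 0.18 after quantile normalization. Prkacb, a catalytic subunit of protein kinase A, and Grk5, a receptor kinase, differed by 0.42 and −0.77, and both overlapped. Prkacb differed by 0.096 without control arrays 1 and 2, and Grk5 by −0.48 without RANKL-deficient array 3.

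**Figure D3:**
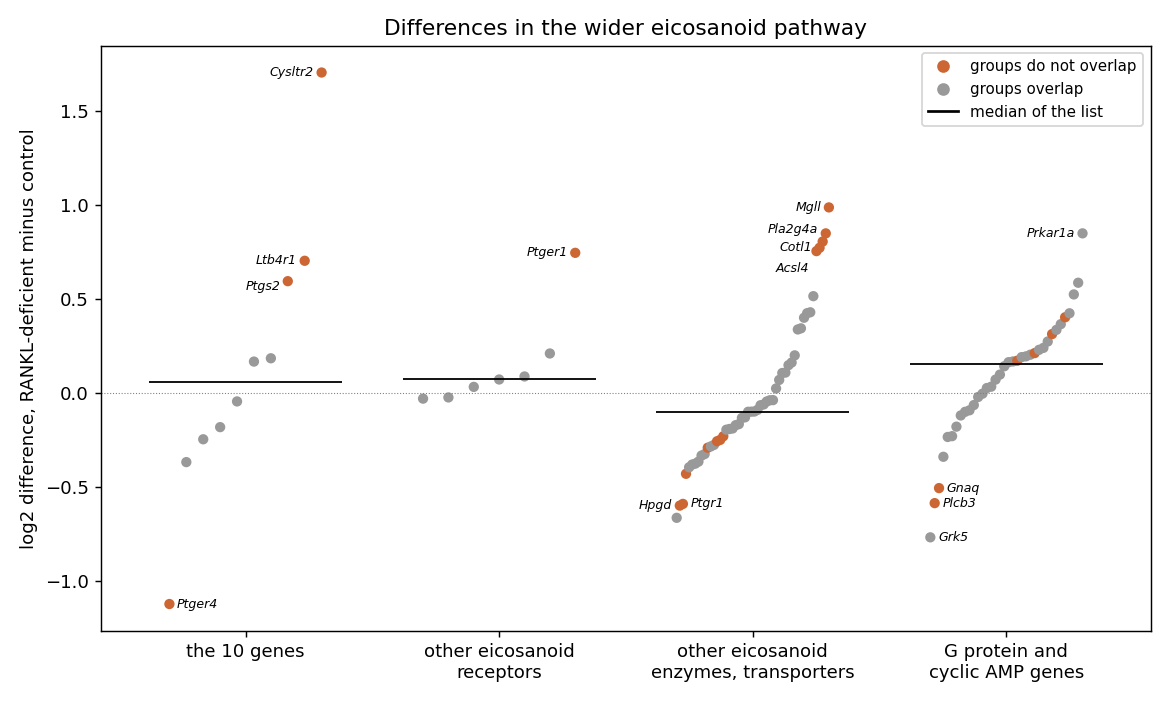
Difference in log2 expression, RANKL-deficient minus control (vertical axis), of every measured gene in the set of 10 and in the 3 wider lists, ordered within each list. Orange points are genes whose 3 arrays per group do not overlap, and black lines are list medians (0.061, 0.071, −0.099 and 0.15). Cysltr2 is the highest point and Ptger4 the lowest.

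The genes with profiles nearest to Cysltr2 over the 6 arrays were Txnip, Dkkl1, Socs2, Ppp2r3c and Sema4b. Likeness was measured as the root mean square distance between log2 profiles, each centred on its own mean, and these distances ran from 0.14 to 0.25. The 5 genes nearest to Ltb4r1 were Galnt1, Gmip, Plekhj1, Med8 and Ttbk1, at distances from 0.085 to 0.099. These genes have large or moderate differences between the groups by construction, since the profiles of Cysltr2 and Ltb4r1 do.

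**Figure D4:**
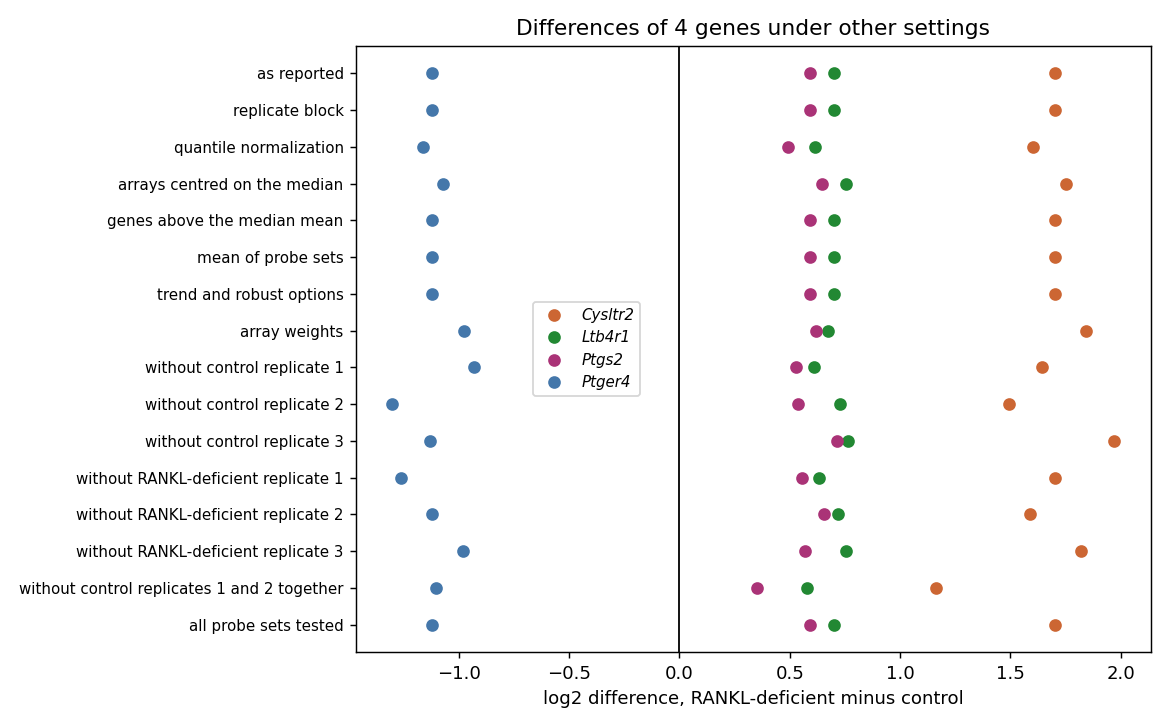
Difference in log2 expression, RANKL-deficient minus control (horizontal axis), of the 4 genes whose groups did not overlap, as reported and under each of the 15 alternative settings (vertical axis). Every gene kept its sign throughout, and the Cysltr2 and Ptgs2 values were smallest without control arrays 1 and 2, at 1.16 and 0.35.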

How the data were processed

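Gene expression was measured on Affymetrix arrays of 6 samples, 3 per group, with groups and replicate numbers read from the sample titles. RNA was amplified from 2 ng of total RNA, per the labels' protocols. The deposited values are log2 expression values of 35556 probe sets. Per the submitters' processing notes, the authors ran RMA with the Affymetrix Expression Console software. The sources used here give no version, setting or genome build. RMA aligns the arrays' distributions, so a shift of all genes would not be seen, and the number of arrays limits the precision.

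Gene names came from the platform annotation, updated by identifier against RefSeq (GRCm38.p6). Probe sets naming several genes (1621) or no gene (12146) were not tested. For the 999 genes with several probe sets, the one with the highest mean was used. The test was limma's moderated linear model (limma 3.58.1, R 4.3.3, two-sided), and p-values were adjusted by Benjamini-Hochberg across the 19938 genes, with a threshold of 0.05 and no filter. The fit was tested on simulated data. For the 2 receptor pairs, the group means of the array-by-array differences were compared by exact permutation. List members are described by counts and medians. The genes and lists were chosen with earlier results of these data known. All 10 genes were named, the 6 genes of smallest p in each wider list, the highest of each marker list named, and the 5 nearest profiles of 2 genes. Other genes are named where a sentence needs them, after their values were seen. Planned protein comparisons were not made, and the gene driving Cre is not reported here. The alternatives were a replicate block, quantile normalization, median centring, genes above the median, probe set means, all probe sets, trend and robust options, array weights, and leaving out arrays.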

Additional observations from a re-analysis of the deposited data

How the results depend on the processing

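The count of genes past the adjusted threshold was 1. It was 0 with the replicate block, 0 without control arrays 1 and 2 together, 0 when all probe sets were tested and 2 with the trend and robust options, and it ran from 0 to 1 when single arrays were left out. The count of the 10 genes past the threshold stayed at 0 in all 15 alternatives. Leaving aside the fit without control arrays 1 and 2, those under an unadjusted p of 0.05 by limma numbered 4 or 5. The share of all genes ran from 5.7% to 14.1% over the same fits. The count of 5 was found without control array 3, where that share was 14.1%. Without control array 3, 8 of the 10 genes had groups that did not overlap, against 35.3% of all genes in that fit. Over the fits without 1 array this count ran from 4 to 8, against 22.6% to 35.3% of all genes. Cysltr2, Ltb4r1, Ptger4 and Ptgs2 kept their sign in all 15 alternatives.

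Signs turned for the genes with small differences. With single arrays left out, Cysltr1 ran from −0.40 to 0.013 (without control array 2), Lta4h from −0.26 to 0.12 (above 0 without control array 1 or 2), Ltc4s from −0.15 (without RANKL-deficient array 2) to 0.42, and Ptger2 from −0.020 (without control array 2) to 0.37. Without control arrays 1 and 2 together, Alox5 became 0.013, Alox5ap 0.039, Lta4h 0.38 and Ptger2 −0.24. Lta4h was 0.0057 after median centring. Alox5, Alox5ap and Ltc4s could not be fitted among genes above the median. The cause of these changes was not tested. Same-numbered arrays showed little joint deviation from their group means (correlations of −0.023, 0.050 and 0.026). Each group mean rests on few arrays, so these correlations cannot decide whether the numbers mark pairs. The replicate block gave Cysltr2 an adjusted p of 0.458 by limma. The number of arrays limits the precision, and no background level was measured.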
